A study of Mus musculus with 2 samples.

Results

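The CXC chemokines and their neutrophil homing receptors were read on 1 Affymetrix array of mouse marrow cells co-cultured with ID8 tumour cells. The group comprised 10 genes, 8 ligands (Cxcl1, Cxcl2, Cxcl3, Cxcl5, Ppbp, Cxcl10, Cxcl16 and Pf4) and 2 receptors (Cxcr2 and Cxcr4). It was chosen by gene symbol: a probe set belonged to it if the platform annotation gave a listed gene as its only symbol. That rule took 13 of 45037 probe sets and 10 of the 18193 genes with a probe set named for them alone. The ID8-induced MDSC sample came from C57BL/6 femoral marrow grown in RPMI-1640 with 5% FBS, with 50000 ID8 cells (a mouse ovarian tumour line, also spelled 1D8 in the labels) above 2000000 marrow cells across a transwell membrane for 4 days. The sample's title calls the inducer a supernatant. The bone marrow cell control came from the same strain and tissue, with no tumour cells listed. Both samples were labelled CD11b+Gr1+, and neither animal number, age and sex nor the control's time in culture was given.

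CXC chemokines are small secreted proteins that steer leukocytes through G protein-coupled receptors. CXCL1, CXCL2, CXCL3, CXCL5 and PPBP carry a glutamate-leucine-arginine motif ahead of their first cysteines, bind CXCR2 and draw neutrophils into tissue. CXCR4, the receptor of CXCL12, holds neutrophils in the marrow, so that the balance of CXCR2 and CXCR4 sets their release into blood. Tumours are known to recruit CXCR2-bearing myeloid cells in this way, and myeloid-derived suppressor cells (MDSC) are the immature, T cell-restraining myeloid cells that gather there.

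Each group had 1 array, so no value has a replicate error, no test could be run, and the number of arrays limits the precision. All signals are from the ID8-induced MDSC array. The control column was not read for any gene, since its values stood in 2 descending sequences down the table, with 0 rises within either, against 10622 and 11804 rises in the ID8-induced column split the same way. No fold change is therefore given, and no value below shows that tumour cells raised or lowered a gene. The strength of a probe set also depends on how well its probes bind, so a signal and its percentile (how many percent of the array's probe sets read lower) place a gene on the scale of the array and do not rank transcripts by abundance. The labelled phenotype was set against its markers. Itgam (the CD11b chain) read 2375, all 9 measured neutrophil markers reached the array's 90th percentile, and Ly6g, 1 of the antigens seen by Gr1 antibody, had no probe set named for it alone. Monocyte and macrophage markers lay above a signal floor of 68.77 in 8 of 11 cases and reached the 90th percentile in 5, where 71.3% and 14.8% of all named genes did. Of that list, C1qa, Mrc1 and Mertk lay below the floor at 35.04, 35.06 and 48.62. Its strongest genes, Cd14, Mpeg1, Csf1r and Cd68, read 10143, 5515, 4403 and 3597 on their brightest probe sets. That floor was set at the 40th percentile of the array, since no detection calls were given. In a bulk sample, fewer cells of a type and less RNA per cell cannot be told apart.

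Of the 10 genes, 9 gave a signal above the floor, where 71.3% of all named genes lay. The 90th percentile was reached by 6 of the 10, against 14.8% of all named genes, and the 99th by 2, against 1.39%. The median percentile of the 10 was 92.1, and that of all named genes was 61.4. Of the 13 probe sets read separately, 12 lay above the floor (92.3%), against 60% of all probe sets. The share over all probe sets follows from how the floor was set. The probe set of Cxcl5 was the only one of the 13 below the floor.

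**Figure D1:**
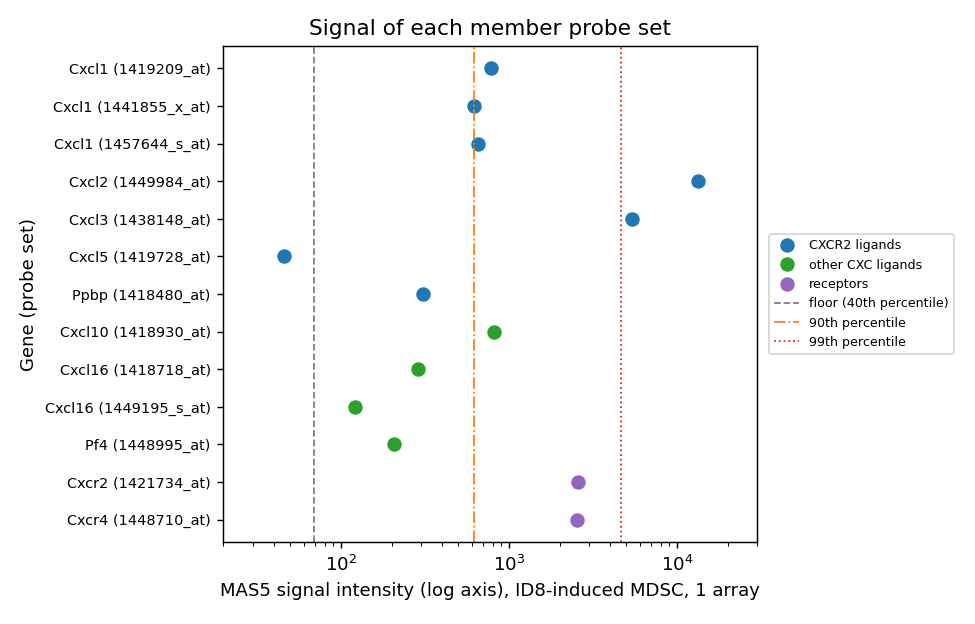
MAS5 signal intensity of each of the 13 probe sets of the 10 genes in the ID8-induced MDSC array, on a log axis, with 1 point per probe set and colours for CXCR2 ligands, other CXC ligands and receptors. Dashed, dash-dotted and dotted lines mark the 40th, 90th and 99th percentile of the array (68.77, 619.81 and 4651): Cxcl2 and Cxcl3 lie beyond the last, and Cxcl5 at 45.61 lies below the first.

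The CXCR2 ligands lay between the 25.2 and the 99.9 percentile of the array. Cxcl2, which encodes MIP-2, the main inducible neutrophil attractant of mouse macrophages and neutrophils, read 13279 on its only probe set (1449984_at). That signal was in place 33 of 45037 probe sets, and 17 of 18193 genes had a brighter one. Cxcl3, a close relative with the same receptor, read 5412 on its only probe set (1438148_at), at the 99.2 percentile. Both lay above the signal that marks the 99th percentile of the array, 4651.

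Cxcl1, which encodes KC, the third of these close relatives, was the only gene of the group with 3 probe sets. They read 785 (1419209_at), 655 (1457644_s_at) and 616 (1441855_x_at), at the 92, 90.5 and 89.9 percentile. The letters s and x in an Affymetrix name mark probe sets that can also bind related transcripts, and the probe set without a letter was the brightest. The 3 signals differed little: the brightest was 1.27 times the dimmest, while the median ratio over the 2366 genes with 3 probe sets was 3.48, and 3.4% of those genes had a lower ratio. This agreement bears on the probe sets of 1 hybridisation and not on the spread between cultures.

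Cxcl5 and Ppbp, the other ligands of CXCR2, lay at lower percentiles. Cxcl5 encodes LIX, which in mice is known chiefly as a product of epithelial and other non-haematopoietic cells. Its only probe set (1419728_at) read 45.61, at the 25.2 percentile and 0.66 times the floor. Ppbp encodes the precursor of NAP-2, a chemokine stored in platelet granules. Its only probe set (1418480_at) read 308, at the 81.7 percentile.

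Among the ligands that do not act through CXCR2, Cxcl10 was the only one above the 90th percentile. CXCL10 is an interferon-inducible attractant of T and NK cells through CXCR3, and its gene read 812 on 1 probe set (1418930_at), at the 92.2 percentile. Cxcl16 encodes a membrane-bound chemokine that is also a scavenger receptor and is released by cell surface proteases to act on CXCR6. Its 2 probe sets read 287 (1418718_at) and 121 (1449195_s_at), at the 80.5 and 60.3 percentile. Their ratio of 2.37 was close to the median of 2.12 over the 4695 genes with 2 probe sets and a dimmest signal above 0. Both lay above the floor, but the level of Cxcl16 depends on which is read.

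Pf4, which encodes platelet factor 4, a granule chemokine of platelets that lacks the CXCR2-binding motif, read 207 on its only probe set (1448995_at), at the 74.4 percentile. Pf4 and Ppbp are the classic chemokine genes of megakaryocytes, so markers of that lineage were set beside them. Of 12 measured platelet and megakaryocyte markers, 9 passed the floor (75%, against 71.3% of all named genes) and 0 reached the 90th percentile. Their brightest signals ran from 33.32 for Vwf, the von Willebrand factor gene, to 202.9 for Itgb3, a subunit of the platelet fibrinogen receptor. The other probe set of Itgb3 read 108.82. Itga2b, the partner subunit of Itgb3, read 175. Gp9 and Gp1bb, which encode parts of the von Willebrand receptor, read 138 and 161, and the other probe set of Gp1bb read 55.56, below the floor. Gp5 and Tubb1 lay below the floor at 68.36 and 56.42. The part of these cells in the Pf4 and Ppbp signals was not tested.

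Both homing receptors gave strong signals at almost the same place on the array. Cxcr2, the receptor of the 5 ligands described first, read 2569 on its only probe set (1421734_at), at the 97.7 percentile. Cxcr4, the marrow retention receptor, read 2539 on its only probe set (1448710_at), at the 97.6 percentile. They held places 1052 and 1068 of 45037 in order of signal. With different probes and no replicate, the nearness of these signals does not show equal amounts of the transcripts. Cxcr1, the other receptor for some of these ligands, had no probe set named for it alone.

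The partners of the group's genes were read as well. Cxcl12, the ligand of CXCR4, had 3 probe sets that lay on both sides of the floor, the brightest at 93.6 and the dimmest at 25.92. Ackr3, the scavenging receptor of CXCL12, read 278 on its only probe set, at the 80 percentile. Cxcr3, the receptor of CXCL10, read 160, at the 68.2 percentile, where the median of all named genes was 61.4. Cxcr6, the receptor of CXCL16, read 54.81 and 12.67 on its 2 probe sets, both below the floor. The ligand genes Cxcl10 and Cxcl16 and the receptor gene Cxcr3 were thus above the floor, as were 71.3% of all named genes.

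Of the 7 other CXC ligand genes measured, 5 passed the floor (71.4%, against 71.3% of all named genes) and 0 reached the 90th percentile. Their brightest signals ran from 53.4 for Cxcl15, the lung chemokine lungkine, to 130.1 for Cxcl14, a chemokine of epithelia. The other probe set of Cxcl14 read 24.01, below the floor. Cxcl13, which guides B cells into follicles, also lay below the floor at 68.03. Cxcl9 and Cxcl11, which share CXCR3 with CXCL10, read 95.07 and 114.82 on their brightest probe sets, and each had a second probe set below the floor, at 52.95 and 66.64. In the gene table used here Cxcl11 is annotated as a transcribed pseudogene in C57BL/6J. Among 7 other CXC and atypical receptors, 4 passed the floor (57.1%), with Cxcr5 at 37.61 and Ackr1 at 49.61 below it beside Cxcr6.

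**Figure D2:**
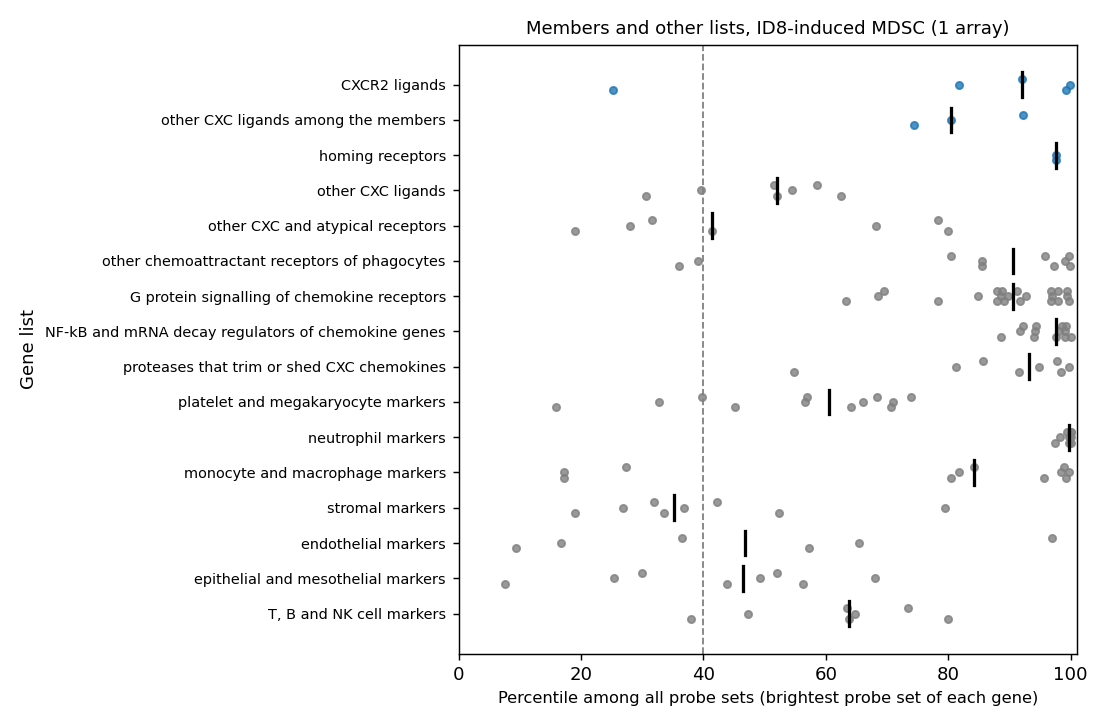
Percentile of each gene's brightest probe set among all probe sets of the ID8-induced MDSC array, for the 10 genes (blue) and the other gene lists (grey), with 1 point per gene, a bar at each list's median and a dashed line at the 40th percentile. The CXCR2 ligands spread from 25.2 for Cxcl5 to 99.9 for Cxcl2, while the 7 other CXC ligands lie between 30.6 and 62.5.

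Genes that act beside the chemokines and their receptors were read from lists chosen with earlier results of these data known. Over all named genes, 71.3% passed the floor and 14.8% reached the 90th percentile. Of 10 other chemoattractant receptors of phagocytes, 8 passed the floor and 5 reached the 90th percentile: Ccrl2, a chemerin-binding receptor, read 11654, Fpr2, a formyl peptide receptor, 8970, and Ccr1, a CC chemokine receptor of neutrophils and monocytes, 5013 on the brighter of its 2 probe sets and 1146 on the other. C5ar1, the complement C5a receptor, read 2308 (1430 on its other probe set), while Ptafr (platelet-activating factor receptor) and S1pr1 (sphingosine 1-phosphate receptor) read 61.83 and 67.19. The list for G protein signalling of chemokine receptors holds transducers and also receptor kinase (Grk), arrestin (Arrb) and regulator (Rgs) genes. It passed the floor in 22 of 22 cases and reached the 90th percentile in 11, with a median percentile of 90.5. Its strongest signals were those of Rac2, the haematopoietic Rac GTPase of neutrophil movement, at 8430, the inhibitory G protein subunit gene Gnai2 at 6716 and Rac1 at 6604. The second probe set of Rac2 read 230, that of Gnai2 3370, and the dimmest of 3 for Rac1 read 13.48.

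Regulators of chemokine transcription and mRNA decay passed the floor in 13 of 13 cases, and 12 reached the 90th percentile. Nfkbia, the inhibitor and target of NF-kB, read 16872 on the brightest of its 5 probe sets and 4043 on the dimmest. Nfkbiz, which encodes a nuclear co-regulator of inflammatory genes, read 5444 on its brightest and 1049 on its dimmest probe set. The ubiquitin-editing inhibitor gene Tnfaip3 read 5056 and 1493 on its 2 probe sets. Zfp36 encodes tristetraprolin, which binds AU-rich chemokine mRNAs and speeds their decay, and it read 4982. The proteases that trim or shed CXC chemokines passed in 8 of 8 cases. They passed in 7 with a floor at the 60th percentile or with the mean log2 signal over probe sets. Mmp8, neutrophil collagenase, read 9648, Mmp9 (gelatinase B) 3517 (2890 on its other probe set), Adam17 (a sheddase) 2667 (2187 on its dimmest) and Prtn3 (proteinase 3) 1229. For all named genes the floor was passed by 71.3% and the 90th percentile reached by 14.8%.

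The chemokine genes of the group lie on mouse chromosome 5, except Cxcl16 on chromosome 11. In the GRCm38.p6 gene table, Cxcl5, Ppbp, Pf4, Cxcl3, Cxcl15, Cxcl1 and Cxcl2 follow each other in that order, with no other protein-coding gene between them. Their brightest signals in that order were 45.61, 308, 207, 5412, 53.4, 785 and 13279. Cxcl5 at the start of the run and Cxcl15 within it lay below the floor, and the other 5 lay above it. Over all named genes 71.3% lay above the floor, a share close to that of this run. The 3 protein-coding genes on each side, chosen by position after the signals were known, read between 27.83 (Rassf6) and 116.32 (Epgn). Of these 6, 1 passed the floor, and Albfm1 at 68.76 lay just under the floor of 68.77. Cxcl10 lies in a second group with Cxcl9 and Cxcl11, and its gene is within the span of Art3, which read 40.62. Of the 7 protein-coding neighbours there, Art3 included, 4 passed the floor, with Scarb2 (a lysosomal membrane protein) the brightest at 1214.

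**Figure D3:**
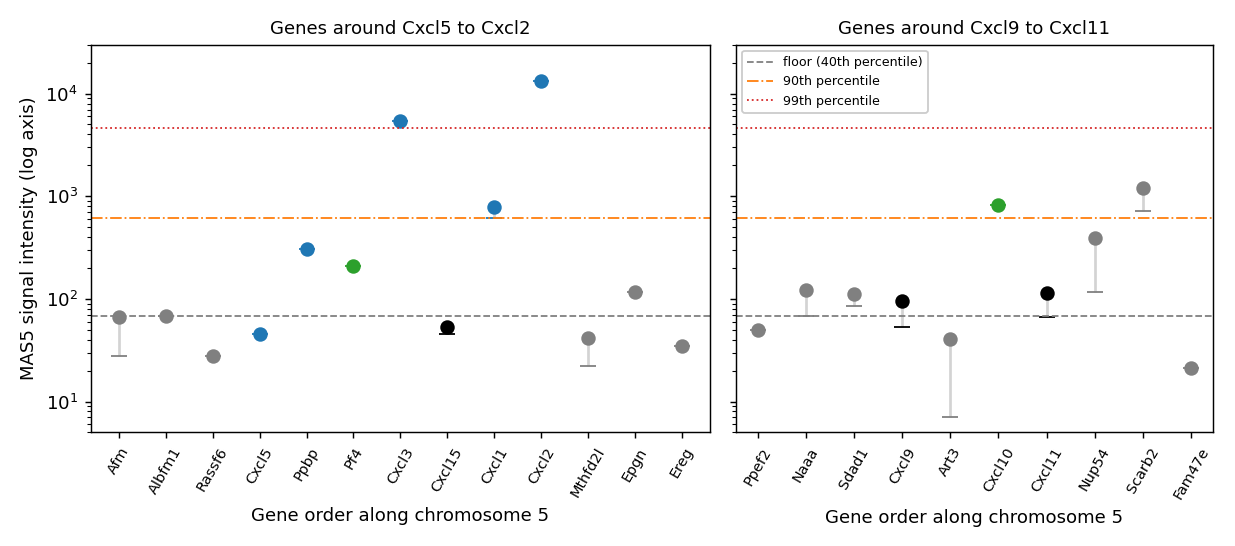
MAS5 signal intensity on a log axis for genes in their order along chromosome 5, around Cxcl5 to Cxcl2 (left) and Cxcl9 to Cxcl11 (right), in the ID8-induced MDSC array. Points are the brightest and ticks the dimmest probe set of a gene, blue marks CXCR2 ligands, green other CXC ligands of the group, black CXC genes outside it and grey all others. In the left panel Cxcl3 and Cxcl2 lie above the 99th percentile line, while Cxcl5 and Cxcl15 lie below the floor.

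The promoters of these chromosome 5 chemokine genes are shown because NF-kB is the textbook activator of Cxcl1 and Cxcl2. RefSeq windows of 300 bases (250 before the annotated start, 50 after, GRCm38.p6) matched 8 of the 10 genes by symbol. Cxcl5 and Cxcl16 had no entry. Each line gives the 110 bases just before the start, 5′ to 3′ on the strand of the gene. Capitals mark a match on either strand to the widest of 3 nested NF-kB motifs searched, which is GGG, any 3 bases, then TTCC.
Cxcl2, chr5:90903789-90903898, plus strand: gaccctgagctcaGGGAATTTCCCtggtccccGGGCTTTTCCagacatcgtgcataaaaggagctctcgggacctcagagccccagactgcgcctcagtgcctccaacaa
Cxcl3, chr5:90785991-90786100, plus strand: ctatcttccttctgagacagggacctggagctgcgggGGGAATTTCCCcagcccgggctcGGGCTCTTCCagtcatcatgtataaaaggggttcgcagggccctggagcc
Cxcl1, chr5:90891135-90891244, plus strand: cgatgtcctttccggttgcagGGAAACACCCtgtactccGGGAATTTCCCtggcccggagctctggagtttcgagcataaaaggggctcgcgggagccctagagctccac
Cxcl10, chr5:92348890-92348999, minus strand: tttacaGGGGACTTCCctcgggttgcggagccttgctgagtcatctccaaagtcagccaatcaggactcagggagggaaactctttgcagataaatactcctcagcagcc
Ppbp, chr5:90768408-90768517, plus strand: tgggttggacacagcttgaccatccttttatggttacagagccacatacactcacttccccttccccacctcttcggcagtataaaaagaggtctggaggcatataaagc
Pf4, chr5:90772325-90772434, plus strand: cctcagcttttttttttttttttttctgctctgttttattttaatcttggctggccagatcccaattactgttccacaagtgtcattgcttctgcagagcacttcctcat

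The letters GGGAATTTCC stood in each of the Cxcl1, Cxcl2 and Cxcl3 windows, starting 71, 97 and 73 bases before the annotated start. The narrowest motif (GGGA, any base, then TTTCC, on either strand) was present in 3 of the 8 genes of the group with a window. Over all, it was present in 126 of 27025 genes with a window and in 0.411% of all 32851 windows in the table. The intermediate motif (GGG, any 2 bases, then TTTCC) was present in the same 3 and in 1.63% of all windows, with further matches of GGGCTTTTCC in Cxcl2 and, on the opposite strand, GGGTGTTTCC in Cxcl1. The widest motif, which includes the others and overlaps itself on the opposite strand within GGGAATTTCCC, added Cxcl10 and was present in 5.56% of windows. The Cxcl10 matches were GGGGACTTCC, 104 bases before the start, and GGGAAATTCC, 159 bases before it and outside the printed stretch. Cxcl10 was also the only gene of the 8 with the core of the interferon response element (GAAA, any 2 bases, then GAAA), as GAAAGTGAAA 213 bases before the start (3.44% of all windows). The widest NF-kB motif and the interferon motif were chosen after the windows had been seen.

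Cxcl1, Cxcl2 and Cxcl3, with GGGAATTTCC, lay at the 92, 99.9 and 99.2 percentile, and Cxcl10, without those letters, at the 92.2. Of the genes whose windows held none of the 4 motifs, Cxcr2 and Cxcr4 lay at the 97.7 and 97.6 percentile and Ppbp and Pf4 at the 81.7 and 74.4. The signals were known when the motifs were chosen, so this is a description only. A match describes letters in a window, and its absence says only that these letters are not there. Cxcl1, Cxcl2 and Cxcl3 are close relatives, so their windows are not independent of each other. Whether any factor bound these stretches was not measured.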

How the data were processed

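Per the labels' protocols, total RNA was extracted with TRIzol and 6 ug was made into biotinylated cRNA for Affymetrix arrays. The submitters' processing notes name MAS5. Neither its version nor its scaling target nor detection calls were given in the sources used. The deposited values are linear signal intensity per probe set and were not scaled again. Genes were read only from the 34945 probe sets with 1 gene symbol in GEO's platform annotation (932 had several and 9160 had none). The floor, the percentiles and the places in order of signal were taken over all 45037 probe sets. No probe set with several symbols named a gene of the group.

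A gene was read at its brightest probe set for counts, and each probe set was also given separately. The floor was the array's 40th percentile. With 1 array, no test and no comparison with genes of like pattern across samples could be made. The members, lists and motifs were chosen with earlier results of these data known. The genes named were the 10 members and, from the other lists, up to 4 with the strongest signals, genes below the floor, platelet markers and the partners of the 10. Partners, chromosomal neighbours and motif genes were named after their values were seen. Motifs were searched on both strands of RefSeq windows, protein sequences were not analysed here, and the percentile code was tested on simulated data. The floor was also put at the 20th and at the 60th percentile, and a gene was also read by the mean log2 signal or the dimmest of its probe sets, and from suffix-free probe sets. Scripts ran in Python 3.11.15 with pandas 2.3.3, numpy 2.4.6 and matplotlib 3.10.9.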

Additional observations from a re-analysis of the deposited data

How the results depend on the processing

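The count of genes above the floor was 9 of 10 under 4 of 5 alternatives (a floor at the 60th percentile, the mean log2 signal, the dimmest probe set, suffix-free probe sets). It was 10 when the floor was lowered to the 20th percentile (38.75), which Cxcl5 passed. The count at or above the 99th percentile was 2 under each alternative run. Only the Cxcl16 signal moved by over 1.5 times, to 186 with the mean over its probe sets and 121 with the dimmest, because its 2 probe sets differ. For the 8 genes with 1 probe set these alternatives change nothing by construction. Among the 16 lists, 3 changed their count by over 1.5 times at the 60th percentile and 3 with the mean. The other CXC ligands then had 1 and 3 of 7 above the floor, the epithelial and mesothelial markers 1 and 3 of 8, and the stromal markers 1 of 8 in both cases. At the 20th percentile the stromal markers had 7 of 8. No paired analysis was possible because each group had 1 array and the control column was not read by gene. Without detection calls, passing the floor does not show that a gene was expressed.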

Other observations

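Markers of other cell types were read on the same array, where 71.3% of all named genes passed the floor and 14.8% reached the 90th percentile. Markers of stromal cells, which supply CXCL12 in marrow, passed the floor in 3 of 8 cases, with Col1a1 the brightest at 270.02 (34.71 on its other probe set) and Pdgfra, Pdgfrb, Col3a1, Dcn and Lum below the floor. Endothelial markers passed in 3 of 6 cases, with Egfl7 at 2096 the only one at the 90th percentile (80.8 on the dimmest of its 4 probe sets) and Cdh5, Tek and Emcn below the floor. Markers of epithelium and mesothelium, the kind of cell from which the ID8 line was derived, passed in 5 of 8 cases with 0 at the 90th percentile. Of these, Epcam read 159 and 58.32 on its 2 probe sets, while Krt19, Cdh1 and Wt1 lay below the floor at 46.03, 21.57 and 52.31. Markers of T, B and NK cells passed in 6 of 7 cases with 0 at the 90th percentile, and Cd4 was the brightest at 277 (66.01 on its other probe set).

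Of all genes with the narrowest NF-kB motif in a RefSeq promoter window, 79 had a named probe set on the array. Beside Cxcl2 and Cxcl3, 2 more of them read at or above the 99th percentile: Nfkbia at 16872 and B2m, the light chain of MHC class I, at 13665 (4043 and 12855 on their dimmest probe sets). Pglyrp1, a neutrophil granule protein that binds bacterial cell walls, read 4197. Without Cxcl1, Cxcl2 and Cxcl3, the other 76 passed the floor in 76.3% of cases, reached the 90th percentile in 17.1% and the 99th in 2.63%, and had a median percentile of 64.9. For the intermediate motif, the 270 genes other than these chemokines gave 75.9%, 21.1% and 3.33%, with a median percentile of 68.6. The 14452 genes with both a window and a named probe set passed the floor in 72.3% and reached the 90th percentile in 15.3% and the 99th in 1.44%, with a median percentile of 62.6. These differences were not tested.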
